A study of Eublepharis macularius with 23 samples.

Results

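Hypome 1 is a recessive morph of the leopard gecko in which the black coloration is reduced. The dorsal skin of embryos homozygous for the Hypome 1 allele (mh1/mh1, 4 libraries) was compared with that of heterozygous embryos (mh1/+, 3 libraries) by bulk RNA sequencing. The comparison was made across the 16348 genes, of 22064 in the count table, that had at least 10 counts in at least 3 of these 7 libraries, which are 7 of the 23 samples of the series. Another 2 libraries, from wild-type embryos (+/+), shared the model and its estimate of the spread, and their values are given for orientation. All embryos came from a single pair of heterozygous parents, were collected over several breeding seasons at stage 41, about embryonic day 40, when melanin has begun to form, and were genotyped from single nucleotide variants beside the mapped locus. They were not sexed and were incubated at a temperature that yields mostly females, and p-values measure the spread between these samples only. The groups also differ in the alleles linked to the mapped locus on Scaffold 3, whose 29 tested genes stayed in the fit and in every count but are not described one by one. There were 55 genes that passed the filter through homozygous libraries alone and 36 through heterozygous ones alone. These genes were kept in the list counts below, where their difference is not independent of the filter. Levels are in CPM, counts scaled to the size of each library after TMM normalization. Libraries are called homozygous 1 to 4, heterozygous 1 to 3 and wild-type 1 and 2 after their replicate numbers.

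The epidermis is a layered epithelium in which keratinocytes leave the basal layer, fill with keratin filaments, cross-link proteins into a cornified envelope and release lipids that seal the outer layers against water loss. In reptiles many proteins of the cornified layers are encoded together in the epidermal differentiation complex, between genes of the S100 family. Scales grow from thickenings of the embryonic skin, the placodes, under hedgehog, WNT, BMP, FGF and ectodysplasin signals that pass between epidermis and dermis. Below the epidermis lie the chromatophores of reptile skin, which are melanophores with melanin, xanthophores with pteridines and carotenoids, and iridophores with purine crystals.

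The 7 libraries held between 34492904 and 52017277 counts. In a principal component analysis of the 500 most variable genes the genotypes lay apart on the first component (53.4% of the variance), at 3.82 to 22.5 in homozygous and -36.8 to -11.9 in heterozygous skin. Heterozygous 2 was the library farthest out, at -36.8, and homozygous 3 the homozygous library nearest to the heterozygous ones, so that results are also given without them where it matters. Genes annotated as ribosomal RNA took 18.1% of the counts in homozygous 1 and 12.7% in heterozygous 2, against 4.88% to 9.39% in the other 5 libraries. The summed markers of skeletal muscle stood at 4390 CPM in homozygous 1 and at 23.1 to 87.9 CPM in the other homozygous libraries, against 295 to 3196 CPM in heterozygous skin. Keratinocyte and dermal fibroblast markers were detected in every library, with sums of 7033 to 8147 CPM for keratinocytes in homozygous skin, against 3956 to 6478 CPM in heterozygous skin, and for fibroblasts 114150 to 117580 CPM in homozygous skin, against 100980 to 124060 CPM in heterozygous skin. In bulk skin, fewer cells of a type and less RNA per cell cannot be told apart.

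Few genes passed edgeR's quasi-likelihood test and many passed the Wald test of DESeq2, the test the study used. At an adjusted p under 0.05 edgeR called 4 genes higher (0.0245% of those tested) and 2 lower (0.0122%) in homozygous skin. These were *XDH*, *TMEM268* and a pair of *B3GALT5-like* genes on the higher side, and *AHRR* and *NES* on the lower side. The pair lies on Scaffold 3, as the mapped locus does, but outside its interval. *LOC129326151*, a member of the pair, had 2 counts in heterozygous skin in all and passed the filter through homozygous skin alone. *DGAT2*, *SMAD9*, *CHRDL2*, *LOC129325829* (*MMP1-like*), *EDNRB* and *BTLA*, named below, also lie on Scaffold 3. The part of alleles linked to the mapped locus in these genes was not tested. DESeq2 called 746 genes higher (4.75%) and 406 lower (2.59%) of the 15702 to which it gave an adjusted p. Without heterozygous 2, DESeq2 called 392 higher and 92 lower, and without homozygous 3 it called 1091 higher and 656 lower. At an unadjusted p under 0.05, edgeR placed 1616 genes higher (9.89%) and 1332 lower (8.15%). Scaled by library totals in place of the TMM factors, the same test placed 817 higher and 2491 lower, so that the share of higher genes was 24.7% in place of 54.8%, and the median of all genes was -0.18 on the log2 scale in place of -0.0031. Directions below are on the TMM scale, relative to that shift. The homozygous and heterozygous libraries did not overlap for 1480 genes on the higher side (9.05%) and 1364 on the lower side (8.34%). In what follows a gene is called higher or lower when its DESeq2 adjusted p was under 0.05, and its fold change, the value with ± in parentheses, is the log2 value of the edgeR fit with its standard error. Counts of calls in a list are to be read against the 4.75% and 2.59% of all genes, and counts without overlap against 9.05% and 8.34%. Calls of 1 or 2 members on one side of a list were seen in 18 cases, and in each of them the count was changed by over 1.5 times by leaving out at least 1 library. Whether the counting used strand is not given in the sources used here, so overlapping genes are uncertain. Apart from the 6 genes that edgeR called, none of the genes named below reached an adjusted p of 0.05 in edgeR.

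Over 64 lists of genes that share a function, the median log2 fold change ran from -0.77 for smooth and skeletal muscle genes to 1.06 for barrier lipids and ceramides. It was above 0.2 in 17 lists, below -0.2 in 8 and between these in 39. The level of a list in a library was taken as the mean over its members of the log2 CPM. Each gene was centred on its mean over the 7 homozygous and heterozygous libraries. For 24 lists the levels of homozygous and heterozygous skin did not overlap, 16 with homozygous skin above and 8 with it below. Heterozygous 2 lay farthest from the homozygous libraries in 22 of the 24 and homozygous 3 nearest to the heterozygous ones in 18. Both wild-type libraries lay on the heterozygous side of every homozygous library in 20.

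**Figure D1:**
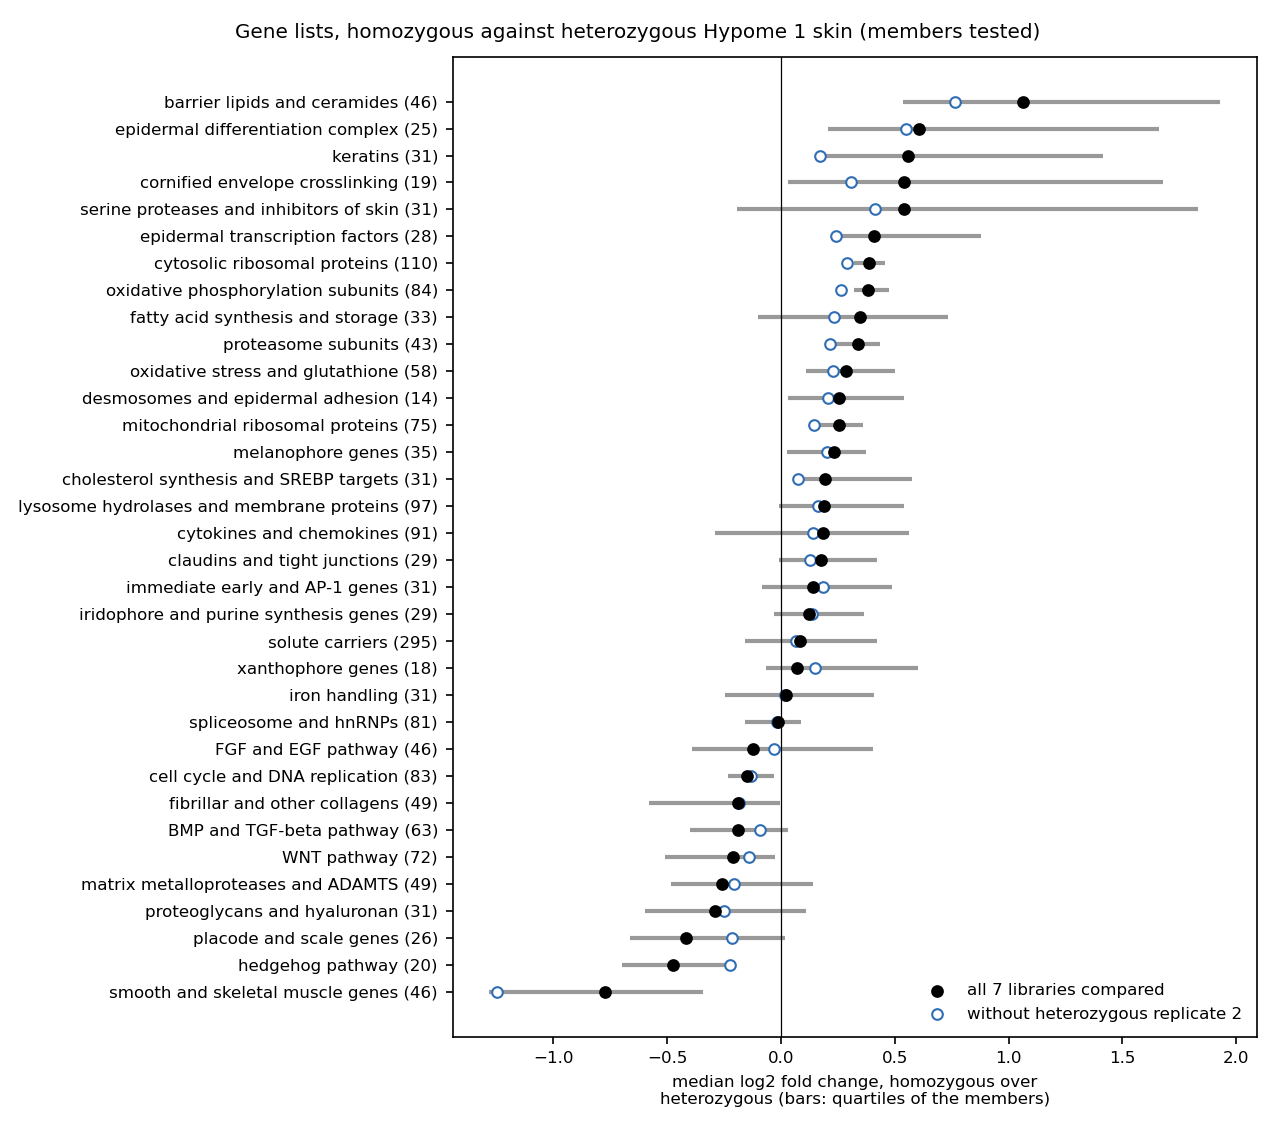
Median log2 fold change of the tested members of 34 lists, homozygous over heterozygous skin (filled points), with the quartiles of the members (grey bars) and the median without heterozygous 2 (open points). The number of members tested stands in parentheses. Lists of the cornifying epidermis lie at the top, with barrier lipids at 1.06, and hedgehog, placode and muscle genes at the bottom, and most medians lie nearer to 0 without heterozygous 2.

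Genes that make the lipid barrier of the outer epidermis had the highest median of the lists. Of 46 tested members of the list of barrier lipids and ceramides, 42 had a positive log2 fold change, 21 of 46 with an adjusted p were called higher (45.7%, against 4.75% of all genes) and none was called lower by DESeq2. At an unadjusted p under 0.05 edgeR placed 26 higher and none lower. The groups did not overlap for 28 of the 46 on the higher and 1 on the lower side, against 9.05% and 8.34% of all genes. The median was 1.06, and 0.76 without heterozygous 2, when DESeq2 called 18. It called 13 without homozygous 2 or 4. A single member passed the filter through homozygous skin alone, and the median without it was 1.04. The counts of calls and of members without overlap were not recomputed without it. List levels were 0.88, 0.75, 0.29 and 0.94 in homozygous skin, against -0.56, -2.05 and -0.25 in heterozygous skin and -0.33 and -0.89 in wild-type skin.

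*SPTLC1*, a subunit of the serine palmitoyltransferase that starts sphingolipid synthesis, had 136, 113, 90.2 and 138 CPM in homozygous skin, against 58.5, 38.2 and 70.3 CPM in heterozygous skin. Every homozygous library lay above every heterozygous one, and the wild-type libraries had 64.2 and 56.2 CPM, within the heterozygous range. The log2 fold change was 1.10 ± 0.22 (DESeq2 adjusted p = 0.000155). *LOC129324175* (*FADS1-like*), named for a desaturase of long fatty acids, had 80.2, 69.0, 32.5 and 98.5 CPM in homozygous skin, against 6.38, 1.91 and 9.72 CPM in heterozygous skin. Homozygous 3 was the lowest of its group and heterozygous 2 the lowest of all, and the groups did not overlap. Its log2 fold change was 3.55 ± 0.65 (DESeq2 adjusted p = 6.52e-05). *LOC129331689* (*LIPM-like*), named for a lipase of differentiating human keratinocytes, had 5.07, 3.81, 1.83 and 5.42 CPM in homozygous skin, against 0.405, 0.201 and 0.50 CPM in heterozygous skin. The groups did not overlap here either (3.44 ± 0.71, DESeq2 adjusted p = 9.72e-06). The edgeR adjusted p of these 3 genes was 0.0785 to 0.0862. For *LOC129338828* (*ALOXE3-like*), named for an epidermal lipoxygenase, homozygous skin had 3.30, 0.964, 0.554 and 2.30 CPM and no heterozygous library held a count. Against a floor of 3 counts per heterozygous library the homozygous mean was at least 25-fold higher. The gene passed the filter through homozygous skin alone, so no p-value is given for it.

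Families were also formed by symbol alone. Of 251 families with at least 8 tested genes, the highest medians were those of *AADACL* (1.79), *FADS* (1.40), *CERS* (0.83), *PLA* (0.68) and *LGALS* (0.60). Without heterozygous 2 the medians of *FADS*, *CERS* and *PLA* were 0.92, 0.43 and 0.41, and that of *CERS* was 0.55 without heterozygous 1. *AADACL* genes are named for arylacetamide deacetylase, a lipid esterase, and 8 of 24 were tested, of which 4 of 6 with an adjusted p were called higher by DESeq2, as they were without heterozygous 2. *LOC129330972* (*AADACL4-like*) had 40.6, 23.2, 12.02 and 22.1 CPM in homozygous skin, against 6.36, 1.51 and 6.78 CPM in heterozygous skin. The groups did not overlap (2.32 ± 0.53, DESeq2 adjusted p = 5.75e-05). Of the 8 *FADS* desaturases tested, 5 were called higher, among them *LOC129324182* (*FADS1-like*) with 162, 101, 62.2 and 139 CPM in homozygous skin, against 21.5, 2.46 and 34.0 CPM in heterozygous skin (DESeq2 adjusted p = 0.0253). The count was 2 without homozygous 1 and 3 without heterozygous 1 or homozygous 2 or 4. The *PLA* family holds phospholipases, which cut fatty acids from membrane lipids, and 8 of its 23 tested genes were called higher and none lower. The number called higher was 1 without homozygous 4, 3 without heterozygous 2 and 4 without heterozygous 1 or homozygous 1. *PLA2G4D* had 50.9, 28.2, 13.1 and 42.2 CPM in homozygous skin, against 3.81, 0.277 and 6.19 CPM in heterozygous skin (3.29 ± 0.85, DESeq2 adjusted p = 0.0128), a spread in which heterozygous 2 was again the lowest library. The ceramide synthase family *CERS* had a positive value for 8 of 9 genes but 1 call, *LOC129329998* (*CERS4-like*), and *CERS3*, which makes the very long ceramides of the skin, had 186, 203, 190.1 and 225 CPM in homozygous skin, against 139, 24.6 and 130.3 CPM in heterozygous skin (DESeq2 adjusted p = 0.263). For *CERS3* the groups did not overlap and heterozygous 2 lay far below the rest. Of the 18 galectin genes (*LGALS*) tested, none was called by either tool, although edgeR placed 3 higher at an unadjusted p under 0.05. Only uniquely placed reads were counted. Copies with nearly the same sequence, as in the *FADS1-like*, *AADACL4-like*, *KLK14-like*, *S100A12-like* and keratin genes, may lose reads that fit several copies. The value of a single copy is therefore uncertain.

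Keratins, which fill the cornifying cells, were called higher more often than lower. The corneous beta proteins of reptile scales were not analysed here. Of 31 keratins tested, 7 of 28 were called higher and 1 lower (25% and 3.57%), and the median was 0.56, or 0.17 without heterozygous 2, when DESeq2 called 7 higher, and 0.88 without heterozygous 3. A single keratin passed the filter through heterozygous skin alone, and the median without it was 0.60. *LOC129346179* (*KRT5-like*), named for the keratin of basal cells, had 1294, 337, 102 and 692 CPM in homozygous skin, against 6.84, 0.151 and 15.9 CPM in heterozygous skin. *LOC129338405* (*KRT10-like*), named for the keratin of the layers above them, had 1997, 494, 89.7 and 742 CPM in homozygous skin, against 5.41, 0.251 and 14.1 CPM in heterozygous skin. In both, homozygous 1 was the highest and heterozygous 2 the lowest library, and homozygous 3 was the lowest of its group. Their log2 fold changes were 6.31 ± 1.40 and 6.98 ± 1.69 (DESeq2 adjusted p = 9.69e-05 and 0.000133). *KRT8*, a keratin of simple epithelia and of the embryonic periderm, had a smaller fold change and a smaller spread. It had 207, 161, 158 and 182 CPM in homozygous skin, against 109, 118 and 133 CPM in heterozygous skin (0.56 ± 0.14, DESeq2 adjusted p = 0.00605), with wild-type libraries at 141 and 121 CPM. *LOC129346010* (*KRT6A-like*), named for a keratin of stressed and fast-growing epidermis, had 3.95, 4.27, 3.16 and 6.75 CPM in homozygous skin, against 1.88, 1.96 and 1.80 CPM in heterozygous skin (DESeq2 adjusted p = 0.00254).

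Genes of the epidermal differentiation complex and of the cornified envelope were called higher in 7 of 24 and 6 of 18 members with an adjusted p, and lower in 1 and none. The medians were 0.61 and 0.54, and 0.55 and 0.31 without heterozygous 2. For the complex DESeq2 called 11 without homozygous 3, the median was 0.38 without homozygous 2, and the median was 0.52 without the 1 member that passed the filter through homozygous skin alone. No gene of the envelope list was lower in edgeR at an unadjusted p under 0.05, and 9 were higher. That list also holds the proteases *LOC129343251* and *LOC129343252* (both *KLK14-like*). Both were called higher and are counted again in the protease list below. *LOC129346373* (*HRNR-like*), named for hornerin, a filaggrin-like protein, had 416, 264, 185 and 328 CPM in homozygous skin, against 77.6, 33.0 and 101 CPM in heterozygous skin (2.08 ± 0.39, DESeq2 adjusted p = 4.22e-07). It is 1 of the 7 called higher, is in the list by name and lies on Scaffold 19, outside the stretch of Scaffold 1 described below. *LOC129325701* (*IVL-like*), named for involucrin, a scaffold of the envelope, had 906, 1068, 964 and 919 CPM in homozygous skin, against 584, 382 and 533 CPM in heterozygous skin (0.95 ± 0.19, DESeq2 adjusted p = 7.00e-05). Both were higher in every homozygous library, and the involucrin gene varied little within homozygous skin. Periplakin (*PPL*), which links the envelope to keratin filaments, showed the same order with 1451, 1134, 985 and 1282 CPM in homozygous skin, against 751, 550.1 and 809 CPM in heterozygous skin (0.79 ± 0.19, DESeq2 adjusted p = 0.00116). *LOC129332614* (*S100A12-like*) was the member called lower, at 1.23, 0.0459, 0.166 and 0.409 CPM in homozygous skin, against 4.10, 3.07 and 2.44 CPM in heterozygous skin (-2.84 ± 0.81, DESeq2 adjusted p = 0.00627).

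Of 31 serine proteases and protease inhibitors of skin, which control the shedding of cornified cells, 7 of 27 were called higher and 1 lower by DESeq2, and the higher count was 4 without heterozygous 1 or homozygous 1 or 4. The median was 0.54, or 0.42 without heterozygous 2, and the 2 members that passed the filter through homozygous skin alone left it at 0.53 when set aside. They include *LOC129340120* (*PRSS27-like*), which is among the 7 called higher. *LOC129343251* (*KLK14-like*), named for a kallikrein that cuts the junctions of cornified cells, had 45.2, 28.3, 8.09 and 22.2 CPM in homozygous skin, against 2.59, 0.201 and 1.53 CPM in heterozygous skin. The groups stood far apart, with homozygous 3 the lowest of its group (4.14 ± 0.78, DESeq2 adjusted p = 0.000122). A second copy, *LOC129343252* (*KLK14-like*), had 96.2, 35.7, 4.68 and 55.4 CPM in homozygous skin, against 0.257, 0 and 0.972 CPM in heterozygous skin (DESeq2 adjusted p = 0.000411). *LOC129340121* (*PRSS27-like*) had 12.3, 5.74, 1.27 and 11 CPM in homozygous skin, against 0.257, 0.302 and 0.389 CPM in heterozygous skin (4.58 ± 0.80, DESeq2 adjusted p = 1.28e-09), while its neighbour *LOC129340120* (*PRSS27-like*) had 0.886 to 2.56 CPM in homozygous skin and 2 counts in heterozygous skin in all. For these, too, homozygous 3 held the lowest homozygous value.

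The genes between *S100A10* and *S100A1*, at 4824283 to 13391670 of Scaffold 1 in the study's assembly, were looked at after their values had been seen and are given as a description. They span the epidermal differentiation complex and number 78, of which 42 were tested and 11 of those have no name but a locus number. Of the 42, 38 had a positive log2 fold change, with a median of 1.07 (0.84 without heterozygous 2), and DESeq2 called 13 of 39 higher and 1 lower. Heterozygous 2 was the lowest of the 7 libraries for 26 of the genes and homozygous 3 the lowest homozygous library for 31. There were 3 genes that passed the filter through homozygous skin alone, and the median without them was 0.95. Of these, *LOC129338057* and *LOC129325619* (*KRTAP5-4-like*) are among the 13 called higher. The stretch holds 4 tested genes annotated *SHEMATRIN2-like*, of which *LOC129325657* (*SHEMATRIN2-like*) had 4196, 2406, 548 and 1981 CPM in homozygous skin, against 175, 0.101 and 331 CPM in heterozygous skin. The homozygous libraries lay above the heterozygous ones, but heterozygous 2 had almost no counts, and DESeq2 did not call the gene (adjusted p = 0.12). *S100A6*, a calcium-binding protein of many cell types, had 7196, 6602, 4456 and 4882 CPM in homozygous skin, against 5674, 3024 and 4572 CPM in heterozygous skin (DESeq2 adjusted p = 0.338), and here the groups overlapped.

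**Figure D2:**
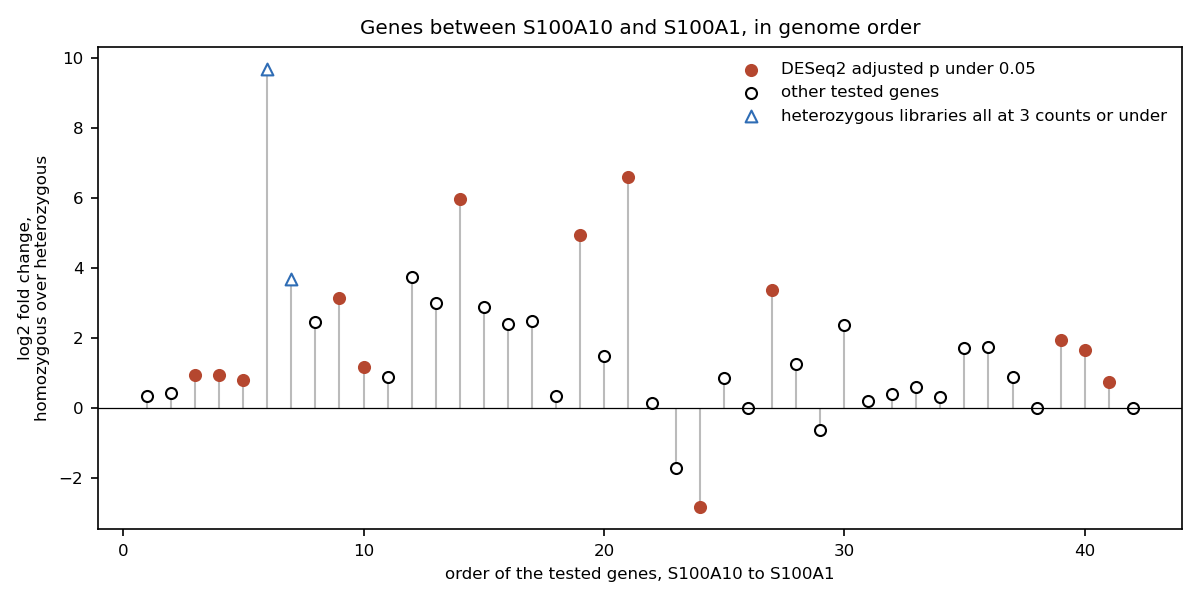
Log2 fold change, homozygous over heterozygous skin, of the 42 tested genes between *S100A10* and *S100A1*, left to right in genome order. Filled points passed DESeq2 at an adjusted p under 0.05 and open points did not, while triangles mark, whatever the test gave, genes whose heterozygous libraries all held 3 counts or fewer and for which the fitted height is no bound. Of the 42 values 38 lie above 0, and a pair of *S100A12-like* genes hold the lowest.

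Transcription factors that direct keratinocyte differentiation were also called on the higher side. Of 28 tested, 26 had a positive value, 8 of 27 were called higher (29.6%) and none lower by DESeq2, with none lower at an unadjusted p under 0.05 in edgeR. The median was 0.41, or 0.24 without heterozygous 2, and the calls were 4 without heterozygous 2 or homozygous 1 and 5 without homozygous 2 or 4. *PRDM1*, a repressor that acts late in keratinocyte differentiation, had 29.1, 27.1, 19.7 and 28.6 CPM in homozygous skin, against 12.98, 16.4 and 14.7 CPM in heterozygous skin. All homozygous values were above all heterozygous and wild-type ones (0.83 ± 0.16, DESeq2 adjusted p = 0.000614). *GATA3*, needed for the epidermal lipid barrier in mice, had 475, 392, 294 and 425 CPM in homozygous skin, against 236, 119.5 and 232 CPM in heterozygous skin (1.02 ± 0.27, DESeq2 adjusted p = 0.00374). *ELF3*, an epithelial factor of the ETS family, had 9.67, 4.24, 1.47 and 5.17 CPM in homozygous skin, against 1.05, 0.553 and 1.06 CPM in heterozygous skin (2.53 ± 0.57, DESeq2 adjusted p = 0.000177), and *GRHL2*, which controls epithelial junction genes, had 23.5 to 28.4 CPM in homozygous skin, against 18.2 to 20.7 CPM in heterozygous skin (0.40 ± 0.11, DESeq2 adjusted p = 0.0306). The fold change was larger in *ELF3*, where homozygous 1 was highest and homozygous 3 lowest.

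Junction genes had medians of 0.26 for desmosomes (0.40 without heterozygous 3) and 0.18 for tight junctions. Of 14 desmosome and adhesion genes 2 were called higher, desmoplakin (*DSP*), with 2818, 2709.6, 2577 and 2812 CPM in homozygous skin, against 1959, 1324 and 2171 CPM in heterozygous skin (0.59 ± 0.18, DESeq2 adjusted p = 0.0177), and plakophilin 1 (*PKP1*, 0.64 ± 0.20, DESeq2 adjusted p = 0.026). The groups did not overlap for *DSP*, and the calls were 0 without homozygous 2 or 4, 1 without heterozygous 2 and 4 without homozygous 3. Of 29 claudin and tight junction genes, 4 of 28 were called higher and 2 lower (14.3% and 7.14%, against 4.75% and 2.59% of all genes). *OCLN* (occludin) had 20.4, 9.22, 7.09 and 12.9 CPM in homozygous skin, against 2.57, 4.02 and 5.72 CPM in heterozygous skin (1.60 ± 0.39, DESeq2 adjusted p = 0.00116), while the claudins *CLDN7* and *LOC129340130* (*CLDN4-like*) went the other way. *CLDN7* had 5.04, 14.1, 13.2 and 6.09 CPM in homozygous skin, against 26.1, 29.0 and 18.7 CPM in heterozygous skin (-1.35 ± 0.35, DESeq2 adjusted p = 0.00403), and the *CLDN4-like* gene had 3.41, 4.77, 3.60 and 2.40 CPM in homozygous skin, against 9.20, 19.4 and 9.16 CPM in heterozygous skin (-1.83 ± 0.33, DESeq2 adjusted p = 2.11e-05). Neither pair of groups overlapped. The calls on the higher side of this list were 2 without heterozygous 1 or 2 or homozygous 1 or 2. Beside all epidermal lists stands the keratinocyte marker sum given above, which was higher in every homozygous library. Among the markers are *DSP* and *JUP*, both also members of the desmosome list, so the sum is not separate from that list. Of the 10 tested markers, with a median of 0.26, DESeq2 called 2 higher and 1 lower, and the part of the sum in these results was not tested.

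**Figure D3:**
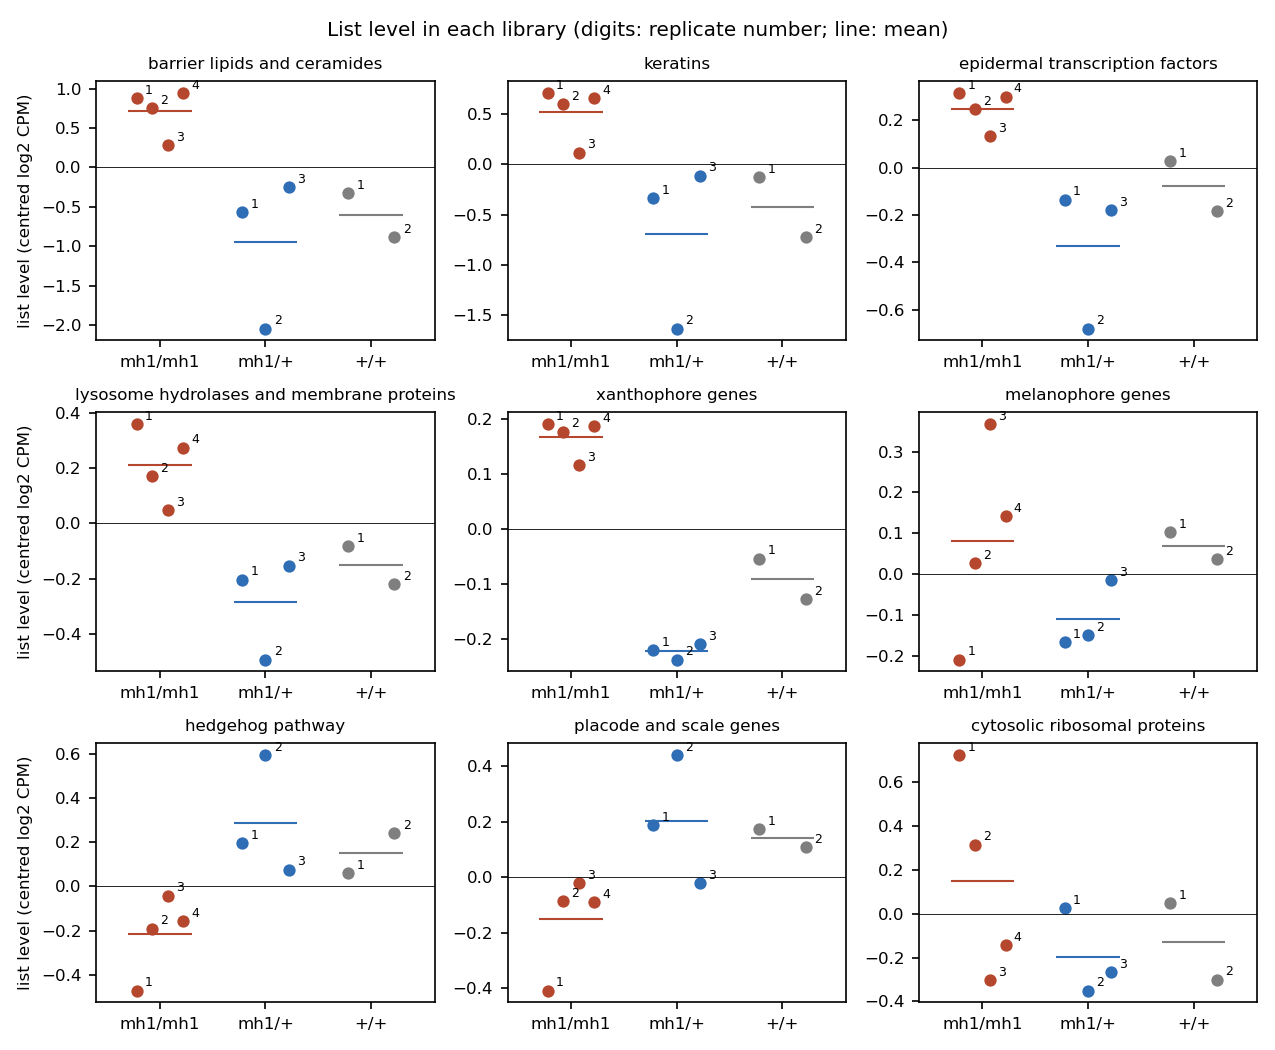
Level of 9 lists in each library (mean over members of the centred log2 CPM), with homozygous, heterozygous and wild-type libraries from left to right, digits for replicate numbers and lines for group means. Homozygous libraries lie above all heterozygous ones in the barrier lipid, keratin, transcription factor, lysosome and xanthophore lists and below them in the hedgehog list, heterozygous 2 lies far out in most, and the groups overlap for melanophore and ribosomal protein genes.

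Storage lipids and sterols were also called on the higher side. Of 33 genes of fatty acid synthesis and storage, 9 were called higher and none lower by DESeq2 (2 were lower in edgeR at an unadjusted p under 0.05), with a median of 0.35. DESeq2 called 4 without heterozygous 2. *DGAT2*, which completes triglycerides, had 2.52, 4.77, 2.38 and 3.27 CPM in homozygous skin, against 0.441, 0.101 and 0.444 CPM in heterozygous skin. The lowest homozygous library stood above the wild-type pair at 1.65 and 1.83 CPM (3.28 ± 0.52, DESeq2 adjusted p = 5.15e-09). *LOC129329854* (*PLIN4-like*), named for a coat protein of lipid droplets, had 9.47, 7.92, 1.75 and 11.03 CPM in homozygous skin, against 1.32, 0.729 and 0.861 CPM in heterozygous skin (2.94 ± 0.64, DESeq2 adjusted p = 1.84e-05). *CD36*, a fatty acid transporter, had 11.4, 10.05, 5.62 and 8.37 CPM in homozygous skin, against 4.74, 2.99 and 3.80 CPM in heterozygous skin (1.20 ± 0.27, DESeq2 adjusted p = 0.00127). The 3 adipocyte markers found summed to 2.53 to 3.85 CPM in homozygous skin, against 0.151 to 1.08 CPM in heterozygous skin, and their part was not tested. Of 31 genes of cholesterol synthesis and SREBP targets, 7 were called higher and 1 lower, at a median of 0.20 (0.08 without heterozygous 2, 0.30 without heterozygous 1 and 0.36 without heterozygous 3). DESeq2 called 2 without heterozygous 1, 3 without heterozygous 2 or homozygous 4 and 4 without homozygous 2. *HMGCS1*, an early enzyme of the pathway, had 217, 169.7, 113 and 149.99 CPM in homozygous skin, against 82.4, 48.2 and 105 CPM in heterozygous skin (1.05 ± 0.28, DESeq2 adjusted p = 0.00385). The groups did not overlap for it.

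Genes of the signals that shape scales lay on the other side. Of 20 hedgehog pathway genes, 6 were called lower (30.0%, against 2.59% of all genes) and none higher by DESeq2. EdgeR placed 10 lower and none higher at an unadjusted p under 0.05. The groups did not overlap for 7 of the 20, all lower, against 8.34% of all genes on that side. List levels were -0.47, -0.19, -0.04 and -0.16 in homozygous skin, against 0.19, 0.59 and 0.08 in heterozygous skin and 0.06 and 0.24 in wild-type skin. The median was -0.48, and -0.22 without heterozygous 2, when DESeq2 called no member (8 were lower at its unadjusted p under 0.05). The calls were 0 without heterozygous 2, 2 without homozygous 2 or 4 and 3 without homozygous 1. *PTCH1*, the receptor of hedgehog ligands and itself a target of the pathway, had 41.1, 56.5, 86.2 and 62.2 CPM in homozygous skin, against 105, 166 and 97.8 CPM in heterozygous skin. Homozygous 3 came nearest to the heterozygous range without reaching it (-1.0 ± 0.25, DESeq2 adjusted p = 0.00443). *SMO*, the membrane protein that *PTCH1* holds back, had 92.0, 91.2, 118 and 94.0 CPM in homozygous skin, against 137, 198 and 130.5 CPM in heterozygous skin (-0.65 ± 0.17, DESeq2 adjusted p = 0.00989). *SUFU*, an inhibitor inside the cell, had 46.6, 48.2, 57.1 and 41.3 CPM in homozygous skin, against 63.2, 94.7 and 63.5 CPM in heterozygous skin (-0.61 ± 0.17, DESeq2 adjusted p = 0.0285). *SCUBE3*, a secreted protein that helps release the ligands, had 7.42, 11.9, 16.4 and 11.2 CPM in homozygous skin, against 22.1, 37.0 and 16.4 CPM in heterozygous skin (-1.10 ± 0.30, DESeq2 adjusted p = 0.00956), with homozygous 3 and heterozygous 3 side by side. The edgeR adjusted p of these 4 was 0.109 to 0.122.

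Of 26 placode and scale genes, 7 of 25 were called lower (28%) and none higher by DESeq2, while edgeR placed 11 lower and 1 higher at an unadjusted p under 0.05. The median was -0.42 (-0.21 without heterozygous 2), and the call count was 1 without heterozygous 2. *FOXI3*, a factor of ectodermal placodes, had 6.10, 6.22, 6.01 and 5.88 CPM in homozygous skin, against 12.2, 19.6 and 10.5 CPM in heterozygous skin. The homozygous libraries hardly varied and all lay below every heterozygous and wild-type library (-1.22 ± 0.21, DESeq2 adjusted p = 5.84e-05). *TBX15*, a factor of the dorsal dermis, had 51.2, 73.1, 77.6 and 62.5 CPM in homozygous skin, against 84.4, 145 and 116 CPM in heterozygous skin (-0.80 ± 0.21, DESeq2 adjusted p = 0.00839). *FOXD1*, another mesenchymal factor, had 23.3, 34.0, 31.4 and 33.5 CPM in homozygous skin, against 49.5, 64.9 and 42.2 CPM in heterozygous skin (-0.77 ± 0.17, DESeq2 adjusted p = 0.00329). In each of them heterozygous 2 was the highest library. *PTCH1* is a member of this list as well as of the hedgehog list.

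Of 72 WNT pathway genes, 10 of 70 were called lower (14.3%) and 1 higher, and edgeR placed 21 lower and 4 higher at an unadjusted p under 0.05. The median was -0.21, and -0.14 without heterozygous 2 or homozygous 1. On the lower side DESeq2 called 3 without heterozygous 2 and 6 without homozygous 4. *NOTUM*, an enzyme that inactivates WNT ligands, had 12.1, 15.0, 23.7 and 15.9 CPM in homozygous skin, against 33.7, 36.8 and 28.9 CPM in heterozygous skin. No library crossed over (-0.99 ± 0.21, DESeq2 adjusted p = 0.000688). *SOSTDC1*, a secreted inhibitor of WNT and BMP, had 24.8, 34.4, 41.3 and 37.9 CPM in homozygous skin, against 58.2, 103 and 46.6 CPM in heterozygous skin (-0.998 ± 0.26, DESeq2 adjusted p = 0.00694). On the activating side, *RSPO1*, which raises WNT signalling, had 5.45, 6.01, 5.76 and 5.37 CPM in homozygous skin, against 11.2, 20.1 and 6.41 CPM in heterozygous skin (-1.16 ± 0.31, DESeq2 adjusted p = 0.0103), and the receptor *FZD9* had 3.00, 2.16, 2.55 and 3.89 CPM in homozygous skin, against 6.47, 17.8 and 5.97 CPM in heterozygous skin (-1.80 ± 0.38, DESeq2 adjusted p = 0.000363). Inhibitors, activators and a receptor were all among the members called lower. Of 63 BMP and TGF-beta genes, 3 of 61 were called lower (4.92%, against 2.59% of all genes) and none higher by DESeq2. EdgeR placed 13 lower and 4 higher at an unadjusted p under 0.05, and the median was -0.19 (-0.09 without heterozygous 2 or homozygous 1). The calls were 1 without heterozygous 2, 5 without heterozygous 3 and 10 without homozygous 3. *TGFB1*, one of the ligands, had 16.8, 16.6, 20.5 and 17.7 CPM in homozygous skin, against 29.2, 44.9 and 28.7 CPM in heterozygous skin (-0.94 ± 0.18, DESeq2 adjusted p = 0.000285). *TGFB3* had 41.4, 45.8, 38.1 and 37.8 CPM in homozygous skin, against 56.6, 66.1 and 49.98 CPM in heterozygous skin (-0.50 ± 0.12, DESeq2 adjusted p = 0.0171), and *SMAD9*, which carries BMP signals to the nucleus, had 0.681, 1.10, 0.499 and 1.69 CPM in homozygous skin, against 2.10, 5.53 and 2.44 CPM in heterozygous skin (DESeq2 adjusted p = 0.00815). *CHRDL2*, a BMP inhibitor, had 0.111 to 1.23 CPM in homozygous skin and no count in heterozygous skin, which puts the homozygous mean at least 8.0-fold higher. DESeq2 gave it no adjusted p. It passed the filter through homozygous skin alone and is among the 4 that edgeR placed higher.

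The FGF and EGF list was split. Of 46 genes, 7 were called higher and 3 lower, around a median of -0.12, and the lower calls were 0 without heterozygous 2 or homozygous 4, 1 without homozygous 2 and 6 without homozygous 3. The median was -0.03 without heterozygous 2, -0.04 without homozygous 1 and -0.22 without homozygous 3, and it changed sign to 0.014 with the year as a factor, a record tied to the libraries by replicate number alone. The members with the smallest p in edgeR were ligands. *FGF22* had 27.3, 9.71, 4.85 and 10.4 CPM in homozygous skin, against 1.53, 1.26 and 2.44 CPM in heterozygous skin. The lowest homozygous library, homozygous 3, lay above the highest heterozygous one (2.91 ± 0.57, DESeq2 adjusted p = 1.18e-06). The EGF receptor ligands *AREG* and *TGFA* followed, *AREG* with 13.2, 9.45, 5.37 and 12.3 CPM in homozygous skin, against 3.79, 1.89 and 4.50 CPM in heterozygous skin, and *TGFA* with 37.7, 23.6, 20 and 28.4 CPM in homozygous skin, against 15.1, 14.0 and 14.3 CPM in heterozygous skin. Their log2 fold changes were 1.57 ± 0.37 and 0.92 ± 0.20 (DESeq2 adjusted p = 0.000858 and 0.00138). *FGF1* had 0.111 to 6.67 CPM in homozygous skin and 2 counts in heterozygous skin in all. It is among the 7 called higher but passed the filter through homozygous skin alone, and the median without it was -0.146.

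Genes of the extracellular matrix, most of them products of dermal cells, were called mainly lower. Of 49 collagens, 6 of 48 were called lower and 2 higher (12.5% and 4.17%, against 2.59% and 4.75% of all genes). The list had a median of -0.19 and lower calls of 2 without heterozygous 2. The median was -0.05 without homozygous 1 and -0.30 without homozygous 3. *COL24A1*, a minor fibrillar collagen, had 25.7, 31.4, 35.5 and 30.1 CPM in homozygous skin, against 57.8, 81.1 and 41.2 CPM in heterozygous skin (-0.97 ± 0.22, DESeq2 adjusted p = 0.00283). *COL2A1*, the collagen of cartilage, had 58.0, 52.2, 53.9 and 63.2 CPM in homozygous skin, against 94.8, 358 and 126 CPM in heterozygous skin. Here heterozygous 2 stood far above the rest (-1.76 ± 0.39, DESeq2 adjusted p = 0.0111). The 6 cartilage markers summed to 59.1 to 68.9 CPM in homozygous skin, against 102 to 365 CPM in heterozygous and 109 to 159.9 CPM in wild-type skin, and the part of cartilage in the matrix lists was not tested. *LOC129323589* (*COL28A1-like*) had 1.12, 1.17, 4.21 and 3.99 CPM in homozygous skin, against 26.8, 142 and 11.4 CPM in heterozygous skin (-4.51 ± 0.85, DESeq2 adjusted p = 0.00016), and *LOC129328629* (*COL3A1-like*), on the other side, had 117, 36.7, 12.1 and 50.4 CPM in homozygous skin, against 1.62, 0 and 0.778 CPM in heterozygous skin (6.02 ± 1.13, DESeq2 adjusted p = 0.000688).

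Of 31 proteoglycan and hyaluronan genes, 6 were called lower and 1 higher, with a median of -0.29 (-0.16 without homozygous 1, -0.25 without heterozygous 2) and lower calls of 1 without heterozygous 2 and 3 without homozygous 2. *VCAN* (versican), a large proteoglycan of loose dermis, had 52.2, 70.9, 82.1 and 78.7 CPM in homozygous skin, against 115, 117 and 98.0 CPM in heterozygous skin (-0.63 ± 0.17, DESeq2 adjusted p = 0.0137). *CEMIP*, which takes part in hyaluronan breakdown, had 16.3, 19.5, 18.4 and 16.4 CPM in homozygous skin, against 29.9, 36.6 and 23.2 CPM in heterozygous skin (-0.76 ± 0.16, DESeq2 adjusted p = 0.00186). *HAPLN1*, which binds hyaluronan to proteoglycans, had 3.68, 5.74, 7.37 and 8.34 CPM in homozygous skin, against 13.9, 18.4 and 12.2 CPM in heterozygous skin (-1.24 ± 0.31, DESeq2 adjusted p = 0.005). Genes that build and genes that degrade the matrix were both among those called lower. Of 49 matrix metalloproteases and ADAMTS proteases, 5 of 48 were called lower and 2 higher, with a median of -0.26 and lower calls of 2 without heterozygous 2 or homozygous 2 or 4 or wild-type 1, 3 without homozygous 1 or wild-type 2 and 9 without homozygous 3. *MMP2*, the gelatinase of fibroblasts, had 108, 129, 171 and 138 CPM in homozygous skin, against 235, 278 and 237 CPM in heterozygous skin, with no overlap (-0.87 ± 0.16, DESeq2 adjusted p = 6.69e-05). *LOC129325829* (*MMP1-like*), named for a collagenase, went the other way with 8.24, 7.39, 14.1 and 13.02 CPM in homozygous skin, against 5.09, 1.96 and 3.28 CPM in heterozygous skin (1.63 ± 0.39, DESeq2 adjusted p = 0.000885). The summed fibroblast markers given above overlapped between the genotypes. Of the 7 tested fibroblast markers DESeq2 called 2 lower and none higher, edgeR placed 3 lower and none higher at an unadjusted p under 0.05, and their median was -0.31. Of 29 dermal fibroblast genes, a longer list, 5 were called lower (17.2%) and none higher by DESeq2, with a median of -0.13, and the part of fibroblasts in the matrix lists was not tested.

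Cell cycle and DNA replication genes had small values, most of them negative. Of 83, 69 had a negative log2 fold change and the groups did not overlap for 22 on the lower and 1 on the higher side, against 8.34% and 9.05% of all genes. The median was -0.15, and -0.13 without heterozygous 2. DESeq2 called 2 lower and 1 higher, with lower calls of 0 without heterozygous 2 or homozygous 2 or 4, 1 without heterozygous 1 or homozygous 1 and 4 without homozygous 3, and edgeR placed 15 lower and 1 higher at an unadjusted p under 0.05. *FOXM1*, a factor of dividing cells, had 26.6, 25.7, 27.8 and 28.7 CPM in homozygous skin, against 35.1, 45.9 and 33.7 CPM in heterozygous skin (-0.49 ± 0.13, DESeq2 adjusted p = 0.0241). *CCNE2*, a cyclin of the start of replication, had 14.7, 14.1, 13.7 and 14.8 CPM in homozygous skin, against 18.4, 21.3 and 22.6 CPM in heterozygous skin (-0.53 ± 0.15, DESeq2 adjusted p = 0.0399). In both, the homozygous libraries lay close together and all lay below the heterozygous ones.

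Pigment cell lists had medians of 0.07 to 0.23. Of 35 melanophore genes, 28 had a positive value, and DESeq2 called 3 higher (8.57%, against 4.75% of all genes) and none lower. At an unadjusted p under 0.05 edgeR placed 7 higher and 2 lower. The median was 0.23, and 0.09 without homozygous 3, and the calls were 1 without heterozygous 1 or 2 or homozygous 2 or 4. *PMEL*, the scaffold on which melanin is laid down, had 1241, 1358, 1601 and 1536 CPM in homozygous skin, against 932, 661 and 1185 CPM in heterozygous skin, and the wild-type libraries had 1581 and 1249 CPM. The homozygous libraries lay above the heterozygous ones but not above the wild-type ones (0.63 ± 0.21, DESeq2 adjusted p = 0.0298). *MLANA*, a melanosome membrane protein, had 94.4, 104, 116 and 117 CPM in homozygous skin, against 85.0, 80.3 and 80.1 CPM in heterozygous skin (0.40 ± 0.11, DESeq2 adjusted p = 0.015). *HPS1*, which serves the making of lysosome-related organelles, had 60.6, 67.9, 74.2 and 70.0 CPM in homozygous skin, against 32.3, 43.6 and 52.5 CPM in heterozygous skin (0.67 ± 0.16, DESeq2 adjusted p = 0.00527). *EDNRB*, an endothelin receptor, went the other way, at 41.1, 45.5, 58.2 and 49.4 CPM in homozygous skin. Heterozygous skin had 54.8, 109 and 67.0 CPM, so the groups overlapped, and the gene was not called (-0.66 ± 0.22, DESeq2 adjusted p = 0.0548). The 8 melanophore markers summed to 1561 to 2137 CPM in homozygous skin, against 982 to 1566 CPM in heterozygous and 1661 to 2038 CPM in wild-type skin, so the homozygous range met both. List levels ran from -0.21 to 0.37 in homozygous skin and from -0.17 to -0.01 in heterozygous skin and overlapped.

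The xanthophore list showed little spread within genotypes. Its levels were 0.19, 0.18, 0.12 and 0.19 in homozygous skin, against -0.22, -0.24 and -0.21 in heterozygous skin and -0.05 and -0.13 in wild-type skin. The homozygous libraries lay above both wild-type libraries, and these above every heterozygous one. Of 18 tested members, only 10 had a positive log2 fold change. The level is a mean over members, to which those with large fold changes, such as *XDH*, add most. DESeq2 called 5 higher and none lower, as did edgeR at an unadjusted p under 0.05. The DESeq2 calls were 3 without heterozygous 1 or 2. The median over members was 0.07, or 0.15 without heterozygous 2 and 0.13 without homozygous 1 or 4, and it changed sign to -0.11 when libraries were scaled by their totals, as did the medians of the iridophore, immediate early, cytokine, solute carrier and iron handling lists described below. *XDH*, xanthine dehydrogenase, which acts on purines and pteridines, had 31.1, 23.0, 10.1 and 21.5 CPM in homozygous skin, against 1.09, 1.51 and 2.78 CPM in heterozygous skin. It was the member that edgeR called as well (3.59 ± 0.45, edgeR adjusted p = 0.0475). *SCARB1*, a lipoprotein receptor that takes up carotenoids, had 132, 78.9, 51.8 and 93.5 CPM in homozygous skin, against 31.5, 22.4 and 46.6 CPM in heterozygous skin (1.41 ± 0.33, DESeq2 adjusted p = 0.000629). *TTC39B*, a gene of lipoprotein metabolism linked to carotenoid colour in birds, had 41.5, 30.1, 23.4 and 39.0 CPM in homozygous skin, against 12.1, 13.9 and 17.5 CPM in heterozygous skin (1.21 ± 0.21, DESeq2 adjusted p = 2.97e-05). No library of one group reached the range of the other. *LOC129341426* (*SLC2A11-like*), named for a transporter needed for pigmented xanthophores in medaka, had 65.2, 67.3, 62.9 and 89.5 CPM in homozygous skin, against 39.7, 45.5 and 50.4 CPM in heterozygous skin (0.66 ± 0.16, DESeq2 adjusted p = 0.00828). The sum of the 5 xanthophore markers overlapped between the groups. Of 29 iridophore and purine synthesis genes, 3 of 28 were called higher and none lower by DESeq2, with 6 higher and 2 lower in edgeR at an unadjusted p under 0.05, and the count was 5 without wild-type 1 or 2. *PNP*, a purine enzyme used as an iridophore marker, had 42.5, 31.96, 80.5 and 58.6 CPM in homozygous skin, against 22.4, 16.9 and 30.2 CPM in heterozygous skin (1.20 ± 0.33, DESeq2 adjusted p = 0.0051), with wild-type libraries at 46.4 and 27.5 CPM. *IMPDH2*, an enzyme of guanine nucleotide synthesis, had 282, 236, 234.3 and 224 CPM in homozygous skin, against 183, 176 and 170.2 CPM in heterozygous skin (0.47 ± 0.12, DESeq2 adjusted p = 0.00329).

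Lysosomal genes were called higher with no member called lower. Of 97 tested, 15 of 95 passed DESeq2 (15.8%), 13 without heterozygous 2, and edgeR placed 32 higher and none lower at an unadjusted p under 0.05. The groups did not overlap for 27 of the 97 on the higher and 2 on the lower side, against 9.05% and 8.34% of all genes. The median was 0.19 (0.16 without heterozygous 2). *CTSF*, a cysteine protease, had 142, 101, 91.2 and 104 CPM in homozygous skin, against 58.5, 43.0 and 62.1 CPM in heterozygous skin. Every homozygous library was above every other library (1.0 ± 0.19, DESeq2 adjusted p = 6.52e-05). *GM2A*, the activator protein of ganglioside breakdown, had 265, 235, 217 and 292 CPM in homozygous skin, against 156, 141 and 175 CPM in heterozygous skin (0.68 ± 0.14, DESeq2 adjusted p = 0.000285). *LOC129331366* (*CTSL-like*), named for cathepsin L, had 352, 138, 5.90 and 100.05 CPM in homozygous skin, against 0.368, 0.176 and 1.67 CPM in heterozygous skin (DESeq2 adjusted p = 2.48e-06), a value that spanned a wide range within homozygous skin.

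Of 58 oxidative stress and glutathione genes, 9 were called higher and none lower by DESeq2 (17 and 1 in edgeR at an unadjusted p under 0.05), with a median of 0.29, or 0.16 without homozygous 1. DESeq2 called 5 without homozygous 2 and 14 without homozygous 3. *TXNRD1*, thioredoxin reductase, had 71.6, 62.3, 40.9 and 65.9 CPM in homozygous skin, against 27.8, 18.5 and 29.0 CPM in heterozygous skin (1.26 ± 0.23, DESeq2 adjusted p = 2.17e-05). *SLC7A11*, the cystine transporter that feeds glutathione synthesis, had 16.6, 12.6, 13.5 and 14.0 CPM in homozygous skin, against 7.39, 4.22 and 8.55 CPM in heterozygous skin (1.07 ± 0.24, DESeq2 adjusted p = 0.00116). *HMOX1*, heme oxygenase, had 55.5, 41.2, 23.8 and 47.3 CPM in homozygous skin, against 14.5, 7.04 and 16.0 CPM in heterozygous skin (1.74 ± 0.34, DESeq2 adjusted p = 1.20e-05). The groups did not overlap for any of the 3. The immediate early list had 7 of 30 called higher and none lower by DESeq2, with 9 and none in edgeR at an unadjusted p under 0.05, and a median of 0.14, or 0.27 without heterozygous 1 and 0.22 without homozygous 1. DESeq2 called 3 without heterozygous 2 and 4 without homozygous 2. *EGR3*, an early growth response factor, had 83.6, 60.7, 52.2 and 97.6 CPM in homozygous skin, against 31.3, 11.99 and 26.4 CPM in heterozygous skin (1.66 ± 0.33, DESeq2 adjusted p = 2.70e-05). *DUSP2*, a phosphatase that limits MAP kinase signals, had 51.1, 29.8, 14.1 and 38.2 CPM in homozygous skin, against 7.69, 3.82 and 7.80 CPM in heterozygous skin (2.37 ± 0.43, DESeq2 adjusted p = 3.30e-07). Heterozygous 2 was the lowest library in both.

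Of 91 cytokine and chemokine genes, receptors included, 11 of 84 were called higher and 1 lower, and the higher count was 6 without homozygous 2 and 7 without heterozygous 1 or 2 or homozygous 4. Receptors of the IL-20 and IL-22 group, which act on keratinocytes, were among them. *LOC129341169* (*IL20RA-like*) had 40.0, 33.1, 24.7 and 36.4 CPM in homozygous skin, against 14.1, 11.4 and 14.8 CPM in heterozygous skin (1.32 ± 0.20, DESeq2 adjusted p = 2.85e-07). *IL22RA1* had 20.9, 16.8, 17.1 and 19.1 CPM in homozygous skin, against 10.3, 12.2 and 12.3 CPM in heterozygous skin (0.67 ± 0.14, DESeq2 adjusted p = 0.00115). *TNFRSF12A*, the TWEAK receptor, was the member called lower, with 24.3, 20.7, 22.9 and 24.3 CPM in homozygous skin, against 34.5, 36.5 and 41.2 CPM in heterozygous skin (-0.70 ± 0.11, DESeq2 adjusted p = 3.56e-05). Neither pair of groups overlapped, and the spread within each was small. The 295 solute carriers tested, the membrane transporters, had 35 of 286 called higher (12.2%) and 2 lower, around a median of 0.08, and the higher count was 18 without heterozygous 2, 19 without heterozygous 1 and 21 without homozygous 4. Metal transporters were among the members with the smallest p. *SLC40A1*, ferroportin, which exports iron, had 37.8, 27.2, 33.2 and 45.7 CPM in homozygous skin, against 10.6, 6.74 and 12.8 CPM in heterozygous skin (1.84 ± 0.27, edgeR adjusted p = 0.0645, DESeq2 adjusted p = 9.71e-09). The zinc importer *SLC39A4* had 44.7, 32.03, 26.4 and 31.8 CPM in homozygous skin, against 10.9, 6.01 and 14.0 CPM in heterozygous skin (1.71 ± 0.28, DESeq2 adjusted p = 3.65e-07). For both, the lowest homozygous library held more than the highest heterozygous or wild-type library. Of 31 iron handling genes 3 of 30 were called higher (10%, against 4.75% of all genes) and none lower by DESeq2, or 5 higher without homozygous 3. EdgeR placed 7 higher and 1 lower at an unadjusted p under 0.05. The groups overlapped for *TF* (transferrin), one of the 3 called, which had 194, 76.8, 16.5 and 83.7 CPM in homozygous skin, against 13.3, 9.35 and 21.6 CPM in heterozygous skin (2.65 ± 0.67, DESeq2 adjusted p = 0.00896). The 6 erythroid markers found summed to 398 to 1699.7 CPM in homozygous skin, against 464 to 579.8 CPM in heterozygous skin, with homozygous 1 highest, and their part was not tested.

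**Figure D4:**
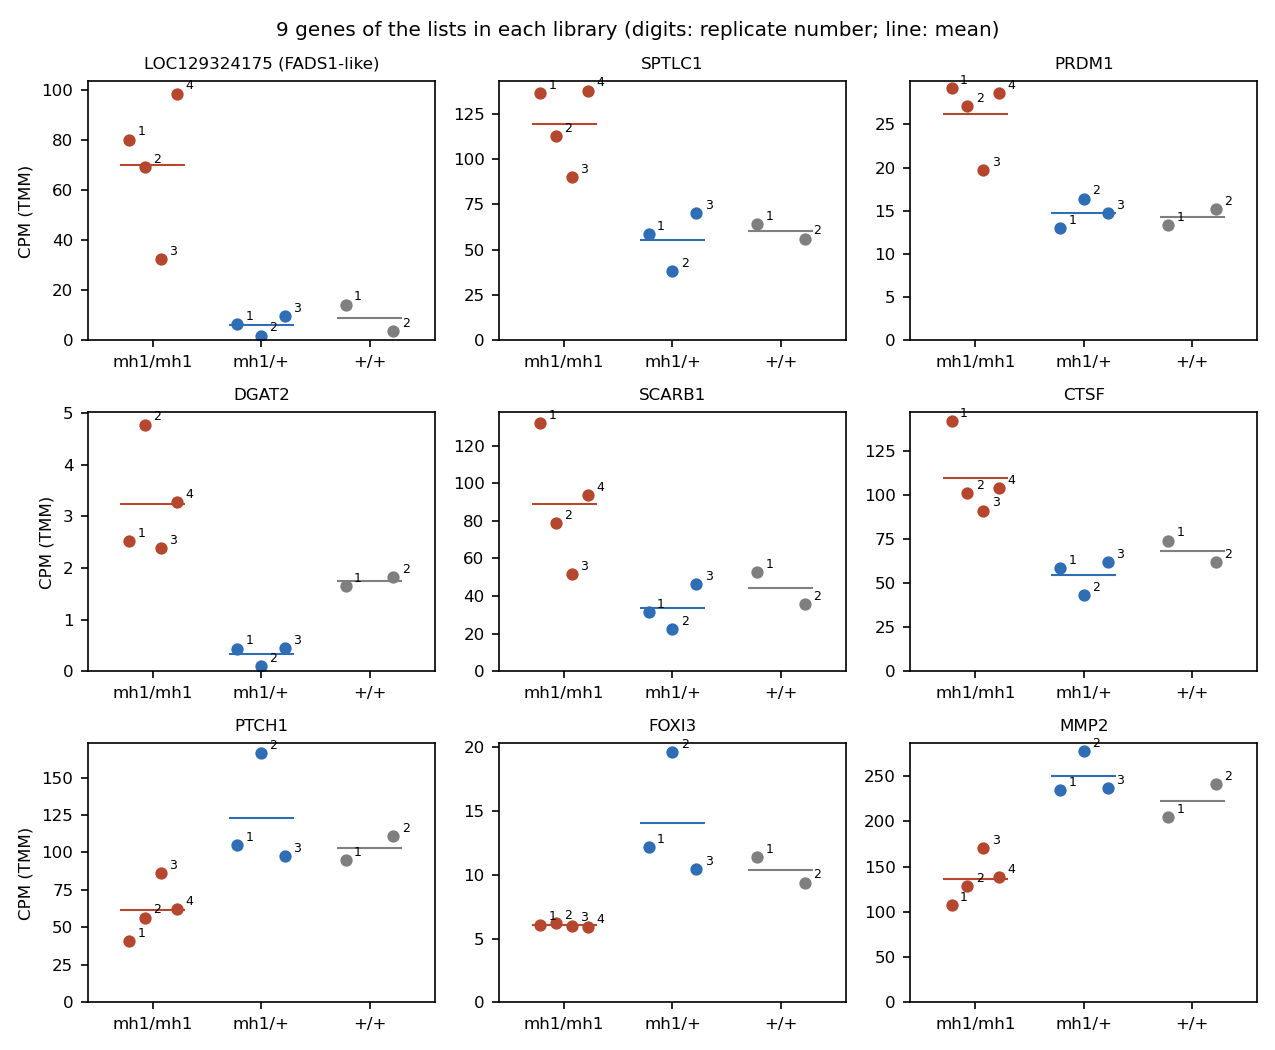
CPM of 9 genes in each library, with homozygous, heterozygous and wild-type libraries from left to right, digits for replicate numbers and lines for group means. For *LOC129324175* (*FADS1-like*), *SPTLC1*, *PRDM1*, *DGAT2*, *SCARB1* and *CTSF* every homozygous library lies above every heterozygous one, and for *PTCH1*, *FOXI3* and *MMP2* every one lies below.

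Some lists had values of one sign with few members called. Of 110 cytosolic ribosomal protein genes, 108 had a positive value at a median of 0.39 (0.21 without homozygous 1), and DESeq2 called 2 of 107 (1 without heterozygous 2 or 3 or homozygous 1 or 2 or 4 or wild-type 1 or 2 and 8 without homozygous 3). Homozygous 1 and 2 lay at 0.72 and 0.32 in list level, homozygous 3 and 4 at -0.30 and -0.14, against 0.02, -0.35 and -0.27 in heterozygous skin, so the groups overlapped. *RPLP0*, of the large subunit, had 4067, 3302, 1840.3 and 2001 CPM in homozygous skin, against 2347, 1673 and 2062 CPM in heterozygous skin (DESeq2 adjusted p = 0.309). Oxidative phosphorylation subunits had 81 of 84 positive values, a median of 0.38 (0.22 without homozygous 1) and 1 call, and 27 calls without homozygous 3. *ATP5F1B*, of ATP synthase, had 813, 752, 503 and 604 CPM in homozygous skin, against 522, 384 and 569 CPM in heterozygous skin (DESeq2 adjusted p = 0.167). Of 43 proteasome subunits, 42 were positive, at a median of 0.34 (0.22 without heterozygous 2), and 1 was called (12 without homozygous 3). That gene was *PSME1*, an activator subunit, with 377, 285, 153 and 233 CPM in homozygous skin, against 123.5, 46.8 and 133 CPM in heterozygous skin (1.38 ± 0.41, DESeq2 adjusted p = 0.00478). The 75 mitochondrial ribosomal proteins had a median of 0.25 (0.14 without heterozygous 2, 0.15 without homozygous 1 and 0.40 without homozygous 3) and no call by DESeq2 or edgeR, and 4 were higher in edgeR at an unadjusted p under 0.05. DESeq2 called 1 without heterozygous 1 or 3 and 7 without homozygous 3. All 4 lists kept positive medians with library totals in place of TMM factors, at 0.18, 0.18, 0.14 and 0.06 in the order given. Homozygous 1, which lies highest in all of them, is also the library with the largest share of ribosomal RNA counts, and that share's part was not tested. The 81 spliceosome and hnRNP genes had a median of -0.01, no call by either tool and none at an unadjusted p under 0.05 in edgeR. Their median ran from -0.04 without homozygous 1 to 0.01 without homozygous 3, and the groups did not overlap for 15 of the 81, all on the lower side, against 8.34% of all genes.

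Muscle genes had the lowest median of the 64 lists, -0.77, but the value depended on single libraries. It ran from -4.68 without homozygous 1, when DESeq2 called 33 of the genes lower, to -0.0011 without heterozygous 3, and with all libraries DESeq2 called 1 of 44. *ACTA1*, the actin of skeletal muscle, had 1879, 8.97, 3.96 and 33.0 CPM in homozygous skin, against 685, 101 and 1213 CPM in heterozygous skin (DESeq2 adjusted p = 0.906). Homozygous 1 was the highest of all libraries and the other homozygous libraries the lowest. The *MYL* family of myosin light chains followed suit, with the lowest median of the 251 families (-0.64), no call by either tool (1 higher in edgeR at an unadjusted p under 0.05), and 7 lower calls without homozygous 1. Its median ran from -5.06 without homozygous 1 to 0.04 without heterozygous 3. The next lowest families were *SEMA* (-0.42), *MSANTD* (-0.41), *FRMD* and *HOXB* (-0.39 each), and without heterozygous 2 those of *SEMA* and *HOXB* were -0.27 and -0.23. Of 22 semaphorins, guidance and adhesion signals, 4 were called lower and 3 higher by DESeq2, with none of either without heterozygous 2 (4 lower and 3 higher at DESeq2's unadjusted p under 0.05), and the lower calls were 0 without heterozygous 2 or homozygous 4, 1 without homozygous 2 and 2 without heterozygous 1. *SEMA5A* had 11.5, 17.7, 15.7 and 12.5 CPM in homozygous skin, against 21.2, 30.6 and 20.2 CPM in heterozygous skin (-0.74 ± 0.19, DESeq2 adjusted p = 0.0141). *SEMA7A* stood on the other side with 64.9, 56.5, 49.8 and 67.2 CPM in homozygous skin, against 33.2, 28.9 and 40.7 CPM in heterozygous skin (0.80 ± 0.19, DESeq2 adjusted p = 0.00379). Among 22 *MSANTD* genes, 5 passed the filter through heterozygous skin alone, and the median without them was -0.11. The family's median was 0.11 without heterozygous 2, -0.63 without heterozygous 3 and -0.65 without homozygous 4. For 3 of the 5, *LOC129341369*, *LOC129329081* and *LOC129340584* (all *MSANTD7-like*), no homozygous library held a count, against 69 to 82 counts over the heterozygous libraries, which puts homozygous skin at least 6.56-fold, 7.35-fold and 6.02-fold lower. As copies of one kind of gene they may lose reads that fit several copies. The wild-type libraries held at most 0.114 CPM of any of the 3. Of 8 *HOXB* genes, which pattern the body axis, *HOXB5* was called, on the higher side and as 1 gene of the 8, with 12.8, 9.09, 7.09 and 10.03 CPM in homozygous skin, against 5.70, 6.29 and 3.89 CPM in heterozygous skin (DESeq2 adjusted p = 0.0463).

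A few genes outside these lists were among those with the largest fold changes in their direction. *LOC129339517* (*HSD17B14-like*), named for a hydroxysteroid dehydrogenase, had 832, 273, 15.5 and 324 CPM in homozygous skin, against 1.03, 0.0503 and 3.36 CPM in heterozygous skin (DESeq2 adjusted p = 1.20e-05). *LOC129324775* (*SERPINA12-like*), named for a protease inhibitor of the epidermis, had 66.9, 24.8, 7.31 and 49.1 CPM in homozygous skin, against 0.147, 0 and 0.50 CPM in heterozygous skin (DESeq2 adjusted p = 1.51e-05). In both, homozygous 3 was again the lowest homozygous library. On the lower side, *CUX2*, a homeobox factor, had 0.545, 0.298, 0.997 and 0.460 CPM in homozygous skin, against 1.23, 4.40 and 2.08 CPM in heterozygous skin (-2.16 ± 0.52, DESeq2 adjusted p = 0.00302). *CDH24*, a cadherin, had 0.204, 0.344, 1.05 and 0.819 CPM in homozygous skin, against 1.78, 3.97 and 1.11 CPM in heterozygous skin (-1.91 ± 0.60, DESeq2 adjusted p = 0.0272), and *BTLA*, an inhibitory receptor of lymphocytes, had 0.341, 0.321, 0.443 and 0.742 CPM in homozygous skin, against 2.15, 2.34 and 1.47 CPM in heterozygous skin (-2.10 ± 0.40, DESeq2 adjusted p = 0.000176). None of the 3 overlapped between the groups. The genes of this paragraph were chosen from those called by DESeq2 without such overlap, so neither is a separate result for them. *LOC129333908*, which has no name, had 17.5, 36.8, 39.7 and 33.1 CPM in homozygous skin, against 123.6, 149 and 68.2 CPM in heterozygous skin (-1.84 ± 0.38, DESeq2 adjusted p = 4.72e-05).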

How the data were processed

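Total RNA from the dorsal skin of stage 41 leopard gecko embryos was sequenced as paired-end libraries. Per the study's methods and the submitters' processing notes, the authors aligned the reads with STAR 2.7.10b to their own assembly. The featureCounts tool of Subread 2.0.6 then gave the counts of each gene from uniquely placed reads of these libraries. The sequencing records, joined by replicate number alone (a link that may be wrong for some libraries), imply 1.28 to 2.27 counts per read pair. The library totals also lie above the read numbers that the study gives for its leopard gecko libraries. A count therefore does not stand for a pair throughout, and at least part of the mates were counted singly. Low counts may come from fewer fragments than their number, and bounds computed with 3 counts per library may then be too high. The deposited values are raw counts per gene, not normalized. Of the 7 libraries compared, totals ran from 34492904 to 52017277 counts, and any pair of libraries differed in at least 81.6% of genes. No column of per-sample values was left unused, and 5 lines of the gene *NEB*, which could not be read, were left out. Of the 22064 symbols, 21757 were found in the RefSeq gene table.

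Genes with at least 10 counts in at least 3 of the 7 homozygous and heterozygous libraries were kept (16348). All 9 Hypome 1 libraries entered a quasi-likelihood model of edgeR 4.0.16 in R 4.3.3 with TMM factors and 1 mean for each genotype, and p-values were adjusted by Benjamini-Hochberg over all genes tested. The residual degrees of freedom were 6, the prior ones 3.86 (median), with a common biological coefficient of variation of 0.295. Standard errors are the absolute log2 fold change divided by the square root of F. DESeq2 1.42.0 (Wald test), which the study used, was run as an alternative, and its calls are reported for single genes and lists. The principal component analysis used the 500 most variable genes after the variance stabilizing transformation. List levels used log2(CPM + 0.1). The steps were tested on simulated counts with known changes, with a smaller spread than these data and no library that stood apart. That test does not measure how often calls in these data are wrong. Tables and figures were made with Python 3.11.15, pandas 2.3.3, numpy 2.4.6 and matplotlib 3.10.9.

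The comparison and the lists were chosen with earlier results of these data known. Named genes are those called by edgeR, the 12 highest and 12 lowest fold changes among genes called by DESeq2 without overlap between groups and with a mean of at least 1 CPM, up to 4 members of each described list with the smallest edgeR p (up to 3 with the highest mean where few were called), and up to 3 members of the 5 highest and 5 lowest families. The text gives a selection of these, and some items are not reported here. Genes of the mapped interval are not named. Alternatives were other scalings and filters, halved counts, the 7 libraries alone, a replicate block, year, RNA integrity and leaving out each library. Leaving out libraries in DESeq2, and leaving out members that passed the filter in a single group, were added after the data were seen. Where no library of a group had a count of a gene, a bound was computed with 3 counts per library. Replicate numbers did not pair the samples.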

Additional observations from a re-analysis of the deposited data

Results flagged for a closer look

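In each of 223 sets of 4 homozygous values, the gap between the highest or lowest library and its neighbour was divided by the range of the 4 libraries (Dixon's ratio). It exceeded the 95% critical value in 10, and chance alone flags about 1 group in 20. Homozygous 1 was far above the others in *ACTA1* (0.985), *TPM1* (0.837) and the summed skeletal muscle markers (0.985). Homozygous 3 was far above the others in *SMO* (0.896) and far below them in the levels of the fatty acid synthesis and storage list (0.881) and of the serine protease and inhibitor list (0.883). Homozygous 2 was highest by such a gap in *NECTIN4*, an adhesion protein (0.952), and in the level of the cholesterol synthesis list (0.924). Homozygous 4 was highest in *LOC129341426* (*SLC2A11-like*, 0.834) and in the level of the solute carrier list (0.910).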

How the results depend on the processing

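Against the 6 genes that edgeR called, DESeq2 called 1152 with the 9 libraries and 1074 with the 7. EdgeR called 3 with the 7 libraries alone, 2 with RNA integrity as a covariate, 2 with the libraries of an integrity number of at least 7, and 0 with the year as a factor. The values for year and integrity are uncertain, because only the replicate number ties these records to a library and the sources do not settle that link. Joined that way, the records imply up to 2.27 counts per read pair, more than both mates of a pair would give. The link may therefore be wrong for some libraries. The fit with a replicate block called 0 genes, but the replicate numbers share only a number (correlations of same-numbered deviations of 0.18, 0.06 and -0.24). Leaving out each library in turn gave 2 to 303 genes in edgeR, the highest without homozygous 3 and 53 without heterozygous 3, and 484 to 1747 in DESeq2. Under the same omissions DESeq2 called 13 to 26 barrier lipid genes, 5 to 11 genes of the epidermal differentiation complex and 4 to 8 epidermal transcription factors higher, and 0 to 9 hedgehog, 1 to 8 placode and 3 to 12 WNT genes lower. The cause of these differences was not tested.

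The 171 named genes were chosen mainly for calls, large fold changes or small p-values in these same libraries. A kept sign was therefore likely from the start. Of 3560 recomputed values of these genes, 3556 kept their sign. The others were *TPM3*, at -0.050 with library totals and -0.060 with the year as a factor, and *ACTA1* and *TPM1*, which ran from -5.43 to 0.29 and from -0.81 to 0.062 over the left-out libraries. Of 748 recomputed list medians, 52 moved beyond the spread between replicates and 12 changed sign. The spread was the standard deviation of the list's level between libraries of the same genotype, which is a wide limit. For keratins it was 0.56, so a median that fell from 0.56 to 0.17 without heterozygous 2 was not counted as moved. Genes with few counts, such as those with none in a genotype, are limited by depth, and for them bounds or values are given.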
